A study of Mus musculus with 10 samples.

Results

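The set described here holds 10 genes used as markers of resident macrophages or known for the handling of haem and iron: Adgre1, Aif1, Mrc1, Siglec1, Vcam1, Folr2, Spic, Cd163, Hmox1 and Slc40a1. They were found by symbol among the 52636 genes of the count table, and all 10 were present. RNA was sequenced from nonclassical monocytes, the patrolling monocyte subset, sorted from mouse bone marrow in 5 libraries of genotype LAIR1+/+ (WT) and 5 of genotype LAIR1-/- (LAIRKO). Per the labels' protocols each library came from 5000 to 10000 cells of 98% purity, given no treatment. The labels name no strain, age, sex or Cre driver, and they do not say whether the libraries of a genotype came from separate animals. LAIR1 is an inhibitory leukocyte receptor that binds collagen, and the study addresses its control of the homeostatic function of monocytes and lung macrophages.

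Resident macrophages of spleen, marrow and liver take up senescent red cells, break down their haem and return the iron to the blood. Haem induces the transcription factor SPI-C in monocytes by degrading the repressor BACH1, and SPI-C is needed for the iron-recycling macrophages of the splenic red pulp and the marrow. In those cells CD163 takes up haemoglobin bound to haptoglobin, haem oxygenase 1 (Hmox1) opens the haem ring, ferritin stores the iron and ferroportin (Slc40a1) exports it. The surface markers of the set serve other functions, from adhesion to endocytosis, and several of them are also present on monocytes.

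The 10 libraries held 12106209 to 15356924 counts each. Lair1 held 4230 to 5579 counts in the WT libraries and 0 to 10 in the LAIRKO libraries, so every library matched its genotype label. The monocyte markers were abundant, as shown by the transcription factor Nr4a1 at 1451 ± 105 CPM in WT and 1158 ± 258 CPM in LAIRKO (SD, n = 5 each). CPM is the count scaled to a common library depth, here after scaling by the trimmed mean of M-values (TMM). Of 12 tested nonclassical monocyte markers 0 passed the edgeR test described below, 4 had an unadjusted p under 0.05, and 1 passed in DESeq2. All 12 log2 fold changes were below 0 (median -0.26). Among all tested genes 6.79% passed in edgeR, and 50.3% had a log2 fold change below 0. Of 30 further genes of tissue macrophages, 7 are picked out here because they failed the low-count filter described below. These were Timd4, Cd5l, Vsig4, Clec4f, Marco, Lyve1 and Cd209f. Together they reached 0.759 to 3.35 CPM in WT and 0.290 to 3.004 CPM in LAIRKO. Of these Cd5l held 2 to 41 counts per library in WT and 2 to 34 in LAIRKO, and the rest held at most 9. The other 23 passed the filter, with WT means from 2.63 CPM (Gas6) to 14130 CPM (Apoe). Clec4f had 0 counts in every library, where a limit of 3 counts allows up to 0.192 to 0.252 CPM. Myeloid progenitor genes summed to 542 to 1428 CPM in WT and 3234 to 6872 CPM in LAIRKO, and mitosis genes to 219 to 311 and 466 to 909 CPM. Both sums were highest in LAIRKO replicates 4 and 5. Their part in the results below was not tested. In bulk RNA, fewer cells of a type and less RNA per cell cannot be told apart.

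Per length of exon, the order of levels in WT ran from Adgre1 through Hmox1, Aif1, Mrc1, Spic, Vcam1, Siglec1, Slc40a1 and Cd163 to Folr2. Adgre1 stood at 282 ± 23.8 CPM per kb (SD, n = 5), the 140th highest of the tested genes in WT. Hmox1 followed at 90.0 ± 8.37 and Aif1 at 47.9 ± 18.5 CPM per kb. Mrc1 and Spic, at 5.70 ± 0.954 and 5.00 ± 0.652 CPM per kb, did not differ beyond their spread, nor did Vcam1 (2.82 ± 1.29), Siglec1 (2.09 ± 0.856) and Slc40a1 (2.03 ± 0.862). Cd163, whose range overlapped that of Slc40a1, was at 0.910 ± 0.281 and Folr2 at 0.393 ± 0.209 CPM per kb. In LAIRKO the first 3 genes kept their order, at 221 ± 37.2, 62.6 ± 16.1 and 13.3 ± 1.29 CPM per kb. Spic (2.35 ± 0.386) and Mrc1 (2.18 ± 0.983) followed, with ranges that overlapped. Cd163 came next at 1.56 ± 0.510 CPM per kb. Its mean lay above those of Slc40a1 (1.43 ± 0.351), Siglec1 (0.983 ± 0.543) and Vcam1 (0.904 ± 0.474), with ranges that overlapped.

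**Figure D1:**
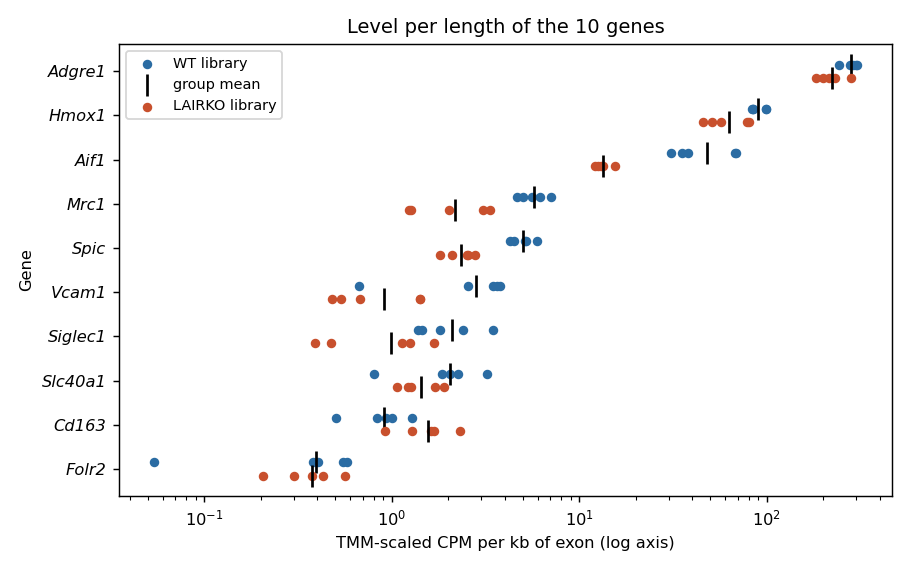
TMM-scaled CPM per kb of exon (log axis) of the 10 genes, with 1 point per library (blue WT, red LAIRKO) and a black bar at each group mean. Adgre1, Hmox1 and Aif1 lie above the other genes in both genotypes, and Cd163 is the only gene whose LAIRKO mean lies to the right of its WT mean.

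The comparison of LAIRKO with WT asks whether these macrophage and iron genes differ in nonclassical monocytes without LAIR1. Aif1, Spic, Mrc1 and Vcam1 fell in LAIRKO, by 1.09 to 1.85 on the log2 scale, and no gene of the set rose. Siglec1, Hmox1, Adgre1 and Slc40a1 had fold changes below 0 that did not pass, and Cd163 had one above 0 that did not pass. The test was edgeR's quasi-likelihood test over the 13469 genes that passed a filter on low counts, with a Benjamini-Hochberg adjusted p under 0.05 as threshold. Of the 9 genes of the set that passed the filter, 4 were lower and 0 higher, where 1.68% of all tested genes were lower, 5.11% higher and 6.79% changed in either direction. Of the 9, 8 had a log2 fold change below 0, as did 50.3% of all tested genes. Their median was -1.09, beside -0.0018 over all tested genes. Folr2 did not pass the filter. Of 914 genes changed in all, 75.3% were higher in LAIRKO, and 90.1% were when libraries were scaled by their totals. That scaling moved the median of all genes to 0.13, and the same 4 genes of the set passed under it. Every WT library lay above every LAIRKO library for Aif1, Spic, Mrc1 and Hmox1, a separation in this direction that 2.06% of all tested genes showed. No gene of the set had every LAIRKO library above every WT library, as 5.61% of all tested genes did, and 7.66% were separate in either direction.

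**Figure D2:**
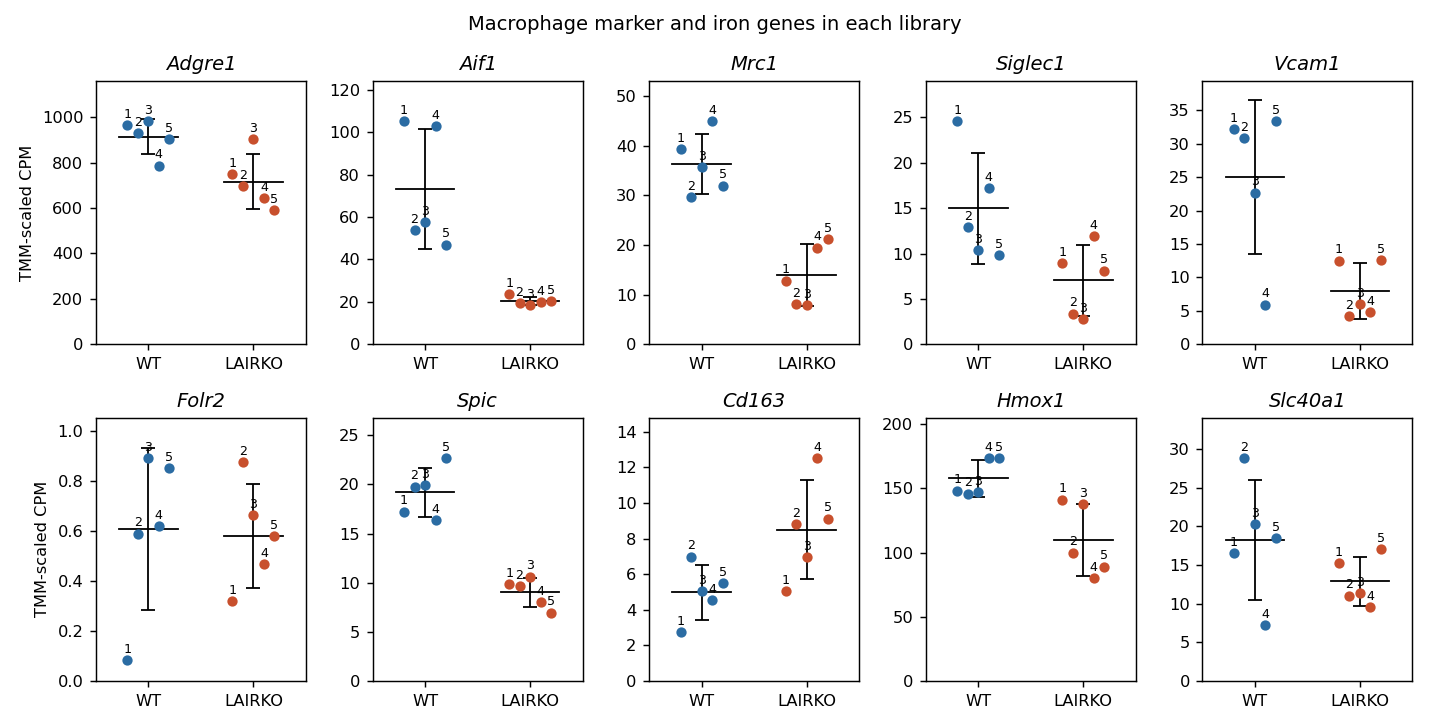
TMM-scaled CPM of each of the 10 genes in the 5 WT (blue) and 5 LAIRKO (red) libraries, with replicate numbers beside the points and bars for mean ± SD. The groups are separate for Aif1, Mrc1, Spic and Hmox1 and overlap for the other genes.

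Aif1 encodes IBA1, an actin-binding protein of monocytes and macrophages used to stain microglia (ENSMUSG00000024397, GRCm38 chromosome 17, 35170991 to 35176068, minus strand). It stood at 105, 53.9, 57.8, 103 and 47.0 CPM in WT replicates 1 to 5 and at 23.7, 19.2, 18.6, 19.9 and 20.4 CPM in LAIRKO replicates 1 to 5. The LAIRKO libraries lay close together, with a coefficient of variation of 9.74%, while the WT libraries varied by 38.7% and WT replicates 1 and 4 were high. Aif1 had the largest fall of the 9 tested genes (log2 fold change -1.85 ± 0.22, SE; edgeR adjusted p = 6.61e-04). Without WT replicates 1 and 4 the log2 fold change was -1.38 and still passed (edgeR adjusted p = 0.00153).

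Mrc1 encodes the mannose receptor CD206, an endocytic lectin (ENSMUSG00000026712, chromosome 2, 14229392 to 14332057, plus strand). It stood at 39.3, 29.6, 35.7, 44.98 and 32.0 CPM in WT and at 12.8, 8.07, 7.82, 19.5 and 21.2 CPM in LAIRKO. As for Aif1, WT replicates 1 and 4 held the highest values, and within LAIRKO replicates 4 and 5 held the highest. The log2 fold change was -1.39 ± 0.27 (edgeR adjusted p = 0.00825). It was -1.23 without WT replicates 1 and 4, where the call was lost (adjusted p = 0.0699), and -1.92 without LAIRKO replicates 4 and 5.

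Siglec1 encodes CD169, a sialic acid receptor of marginal and marrow macrophages that is also induced by interferon (ENSMUSG00000027322, chromosome 2, 131069220 to 131086765, minus strand). It stood at 24.6, 12.9, 10.3, 17.2 and 9.84 CPM in WT and at 8.95, 3.36, 2.78, 11.9 and 8.11 CPM in LAIRKO. WT replicates 1 and 4 were again the highest, and 4 of 5 LAIRKO libraries lay below the lowest WT library. The log2 fold change of -1.09 ± 0.38 did not pass in edgeR (adjusted p = 0.115), passed in DESeq2 (adjusted p = 0.0405), and was -0.65 without WT replicates 1 and 4 (edgeR adjusted p = 0.462). The size of the change was close to that of Spic, whose libraries varied less.

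Vcam1 encodes an adhesion molecule of marrow macrophages, stroma and endothelium that binds the integrin VLA-4 (ENSMUSG00000027962, chromosome 3, 116109949 to 116129688, minus strand). It stood at 32.2, 30.9, 22.7, 5.93 and 33.4 CPM in WT and at 12.5, 4.24, 5.97, 4.75 and 12.6 CPM in LAIRKO. WT replicate 4 stood among the LAIRKO libraries, and the other WT libraries lay above all of them. Vcam1 fell with a log2 fold change of -1.64 ± 0.43 (edgeR adjusted p = 0.0394). The call was lost without WT replicate 1, 2, 3 or 5 or LAIRKO replicate 2, 3 or 4 (adjusted p = 0.0646 to 0.101), without LAIRKO replicates 4 and 5 together (0.109) and with limma voom without and with quality weights (0.104 and 0.0795). Without WT replicate 4 the log2 fold change was -1.89 (edgeR adjusted p = 0.00788).

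Other cells of the marrow express Vcam1, so their markers are given beside it. Of 8 stromal genes 3 were tested and 0 passed in edgeR (1 had an unadjusted p under 0.05, and 1 passed in DESeq2), and the summed stromal level was 20.3 to 48.3 CPM in WT and 17.4 to 30.1 CPM in LAIRKO, with Pdgfra at 0 in every library. Cxcl12, the stromal chemokine that retains leukocytes in marrow, stood at 19.7, 12.7, 8.18, 4.42 and 27.3 CPM in WT and at 7.92, 4.64, 3.98, 5.30 and 9.35 CPM in LAIRKO. WT replicate 4 was the lowest WT library for both Cxcl12 and Vcam1, and LAIRKO replicates 1 and 5 were the highest LAIRKO libraries for both. The log2 fold change of Cxcl12, -1.21 ± 0.42, did not pass in edgeR (adjusted p = 0.108). It passed without WT replicate 4 (edgeR adjusted p = 0.0356) and in DESeq2 (0.0323). Endothelial genes summed to 4.01 to 16.7 CPM in WT and 12.2 to 21.7 CPM in LAIRKO. Of 3 tested, the secreted factor Egfl7 rose (log2 fold change 1.83 ± 0.38, edgeR adjusted p = 0.0126), beside 5.11% higher among all tested genes. Its mean was 4.09 CPM in WT and 14.5 CPM in LAIRKO, so it made up most of the LAIRKO sum. Kdr and Plvap had fold changes below 0 that did not pass. Of the untested genes Cdh5, Emcn, Esam and Stab2 had lower means in LAIRKO, and Tek a higher one. Egfl7 lost its call without LAIRKO replicates 4 and 5 (adjusted p = 0.0657). The part of stromal or endothelial RNA in the Vcam1 result was not tested.

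Adgre1 encodes F4/80, the common surface marker of mouse macrophages, which nonclassical monocytes also carry (ENSMUSG00000004730, chromosome 17, 57358691 to 57483527, plus strand). It stood at 964, 929, 982, 786 and 902 CPM in WT and at 748, 695, 905, 644 and 590.3 CPM in LAIRKO. Of the LAIRKO libraries 4 of 5 lay below the lowest WT library, and LAIRKO replicate 3 lay among the WT libraries. The log2 fold change of -0.35 ± 0.12 did not pass in edgeR with all libraries (adjusted p = 0.0947). It was -0.45 and passed without LAIRKO replicate 3 (edgeR adjusted p = 0.0135), and it passed in DESeq2 (0.0347) and in limma voom with quality weights (0.0400).

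Levels were also set against Adgre1 of the same library, a measure chosen after the values were seen. This ratio does not move when cells without either transcript are added. It does move when cells that carry the 2 transcripts in another proportion are lost or added. Whether the cell mixture differed was not tested. Aif1 came to 8.19 ± 3.59% of the Adgre1 level in WT and 2.91 ± 0.535% in LAIRKO, and Spic to 2.11 ± 0.263% and 1.26 ± 0.0911% (SD, n = 5 each). For these 2 genes every WT ratio lay above every LAIRKO ratio, which 0.267% of all tested genes showed, while 11.5% had every LAIRKO ratio above every WT ratio. For CPM itself these shares were 2.06% and 5.61%. The mean of Adgre1 was lower in LAIRKO (log2 fold change -0.35, not passing in edgeR), and dividing by it raises the LAIRKO ratios of all genes. The share of 0.267% therefore depends in part on the choice of Adgre1. The ratio of Mrc1 was 4.03 ± 0.994% and 2.07 ± 1.19%, and LAIRKO replicate 5 lay above WT replicates 2 and 5. The ratio of Hmox1, at 17.5 ± 3.10% and 15.2 ± 2.34%, overlapped widely. Cd163 came to 0.548 ± 0.170% in WT and 1.24 ± 0.533% in LAIRKO, and its ranges overlapped too.

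Folr2 encodes folate receptor beta, a marker of perivascular and other long-lived tissue macrophages (ENSMUSG00000032725, chromosome 7, 101839988 to 101857194, minus strand). It held 1, 7, 12, 9 and 11 counts in WT and 5, 13, 10, 6 and 8 counts in LAIRKO. An exon of an antisense gene, Gm10602, covered 63.1% of its exon length and held as many counts, 8.40 on average against 8.20 for Folr2. The groups overlapped fully, at 0.608 ± 0.322 and 0.581 ± 0.209 CPM (two-sided exact permutation test, p = 0.897, where the smallest p these group sizes allow is 0.00794). No difference was detected, at counts of 1 to 13 per library, and the size of change that could have been detected was not computed.

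Spic encodes SPI-C, the transcription factor of iron-recycling macrophages (ENSMUSG00000004359, chromosome 10, 88674772 to 88685015, minus strand). It stood at 17.2, 19.8, 19.9, 16.3 and 22.7 CPM in WT and at 9.84, 9.62, 10.6, 8.02 and 6.96 CPM in LAIRKO. The groups were well separated, with the lowest WT library at 16.3 and the highest LAIRKO library at 10.6 CPM. Spic fell with a log2 fold change of -1.09 ± 0.16 (edgeR adjusted p = 0.00180). It passed in all 20 alternative fits that were run, with log2 fold changes from -1.21 to -0.94.

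Cd163 encodes the receptor for complexes of haemoglobin and haptoglobin (ENSMUSG00000008845, chromosome 6, 124304656 to 124330527, plus strand). It stood at 2.76, 6.99, 5.06, 4.55 and 5.50 CPM in WT and at 5.05, 8.81, 6.96, 12.5 and 9.13 CPM in LAIRKO. Of the LAIRKO libraries 3 lay above the highest WT library, and LAIRKO replicate 4 was the highest. Its log2 fold change of 0.77 ± 0.28, the only one above 0 in the set, did not pass (edgeR adjusted p = 0.125, and 0.0696 to 0.462 over the alternatives). Without LAIRKO replicates 4 and 5 it was 0.48. The counts were low, at 33 to 161 per library.

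Hmox1 encodes the inducible haem oxygenase (ENSMUSG00000005413, chromosome 8, 75093621 to 75100589, plus strand). It stood at 148, 146, 147, 174 and 174 CPM in WT and at 141, 99.9, 138, 80.0 and 89.0 CPM in LAIRKO. Every LAIRKO library lay below every WT library, with LAIRKO replicates 1 and 3 close to the WT range and replicates 4 and 5 farthest from it. The log2 fold change of -0.52 ± 0.16 did not pass in edgeR (adjusted p = 0.0627). It passed in edgeR without LAIRKO replicate 1 or 3 (adjusted p = 0.0302 and 0.0262), in DESeq2 (0.0159) and in limma voom without and with quality weights (0.0468 and 0.0438), and it was -0.32 without LAIRKO replicates 4 and 5 (edgeR adjusted p = 0.224).

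Slc40a1 encodes ferroportin, the iron exporter (ENSMUSG00000025993, chromosome 1, 45908068 to 45926523, minus strand). It stood at 16.6, 28.9, 20.3, 7.24 and 18.4 CPM in WT and at 15.3, 11.03, 11.4, 9.58 and 17.1 CPM in LAIRKO. WT replicate 2 was the highest library and WT replicate 4 the lowest of all 10, so the LAIRKO values lay within the WT range. The log2 fold change of -0.50 ± 0.29 did not pass (edgeR adjusted p = 0.348). Without WT replicate 4 it was -0.71 and without WT replicate 2 it was -0.28, and neither passed (edgeR adjusted p = 0.0872 and 0.646).

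**Figure D3:**
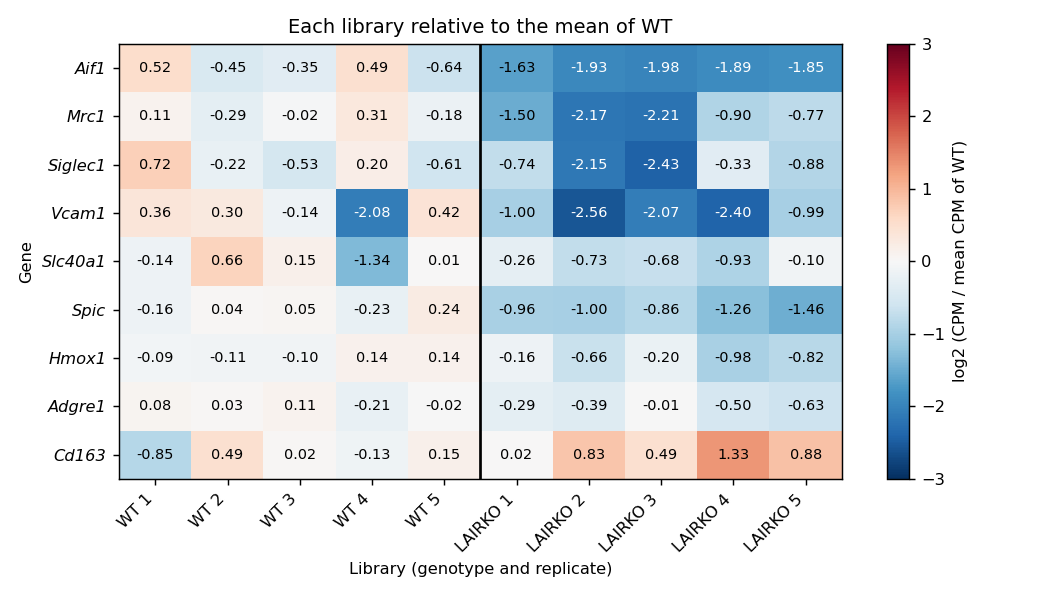
Log2 ratio of each library's CPM to the mean CPM of WT for the 9 tested genes, with the WT libraries to the left of the black line. WT replicates 1 and 4 are high for Aif1, Mrc1 and Siglec1, WT replicate 4 is low for Vcam1 (-2.08) and Slc40a1 (-1.34), and Cd163 reaches 1.33 in LAIRKO replicate 4.

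The WT libraries did not vary in the same way for all genes of the set. WT replicates 1 and 4 were the 2 highest WT libraries for Aif1, Mrc1 and Siglec1, and they were also the highest for the complement gene C1qa, at 156 and 143 CPM beside 80.4 to 103 CPM in the other WT libraries. For Spic the same 2 libraries were the lowest of WT. WT replicate 4 was the lowest WT library for Adgre1, Vcam1, Slc40a1 and Spic. WT replicate 2, the highest for Slc40a1, also held 1243 CPM of the 4 globin genes (Hbb-bs, Hbb-bt, Hba-a1 and Hba-a2), beside 71.2 to 310.4 CPM in the other WT libraries and 28.5 to 108 CPM in LAIRKO. The part of red cell RNA in the Slc40a1 values was not tested.

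Promoter sequences from RefSeq (build GRCm38.p6) were at hand for 5 of the 10 genes, and 4 are shown: Aif1, Mrc1 and Spic, which fell, and Cd163, which had the only fold change above 0. Each is the 250 bases before the annotated transcription start, 5′ to 3′ on the gene's strand, with matches to the PU box GAGGAA on either strand in capitals. The PU box is a sequence bound by PU.1, the master factor of myeloid cells, and by its relative SPI-C.
Aif1, chr17:35176053-35176302, minus strand: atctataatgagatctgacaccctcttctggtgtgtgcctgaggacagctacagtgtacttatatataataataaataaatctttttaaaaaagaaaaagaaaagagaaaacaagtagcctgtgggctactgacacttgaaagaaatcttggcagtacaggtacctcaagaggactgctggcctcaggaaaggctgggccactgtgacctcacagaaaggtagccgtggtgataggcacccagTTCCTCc
Mrc1, chr2:14229164-14229413, plus strand: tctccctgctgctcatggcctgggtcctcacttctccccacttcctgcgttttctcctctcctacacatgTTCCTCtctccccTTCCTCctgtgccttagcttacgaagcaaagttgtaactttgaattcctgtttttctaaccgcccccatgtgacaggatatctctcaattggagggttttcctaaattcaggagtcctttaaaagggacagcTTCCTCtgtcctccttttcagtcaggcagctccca
Spic, chr10:88683024-88683273, minus strand: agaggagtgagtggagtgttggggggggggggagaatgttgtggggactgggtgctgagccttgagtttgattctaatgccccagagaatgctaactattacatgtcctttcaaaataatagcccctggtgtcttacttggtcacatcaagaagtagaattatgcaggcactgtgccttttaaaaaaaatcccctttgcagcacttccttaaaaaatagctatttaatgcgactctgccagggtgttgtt
Cd163, chr6:124304401-124304650, plus strand: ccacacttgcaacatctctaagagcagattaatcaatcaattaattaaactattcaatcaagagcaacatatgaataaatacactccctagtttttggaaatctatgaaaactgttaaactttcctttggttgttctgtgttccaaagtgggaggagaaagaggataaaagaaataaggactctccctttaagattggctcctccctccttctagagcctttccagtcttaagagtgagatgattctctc
The Mrc1 window held 3 PU boxes, from 180 to 30 bases before the start, and the Aif1 window held 1, at 7 to 2 bases before it. The windows of Spic and Cd163 held 0, so Aif1, Mrc1 and Spic did not all hold this exact sequence. Variants of it were not searched, and Vcam1, which also fell, had no promoter sequence at hand. Of 32851 promoter windows of this length 23.3% held a PU box on either strand. The AP-1 core TGANTCA was found in 0 of these 4 windows, in 1 of the 2 Folr2 windows (not shown) at 74 to 68 bases before the start, and in 6.75% of all windows. The interferon-stimulated response element, searched as GAAA, any 2 bases and GAAA, was found once, in the Aif1 window at 157 to 148 bases before the start, and in 2.98% of all windows. None of these motif matches overlapped another. The Spic start used by RefSeq, 88683023, lies inside the longer gene annotated by GENCODE.

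Among the other genes of haem and iron handling 3 of 41 tested were lower and 0 higher. Among all tested genes 1.68% were lower, 5.11% higher and 6.79% changed in either direction. Ferritin and biliverdin reductase B fell in LAIRKO, while the remaining import, transport, sensing and export genes did not pass. Of 20 tested genes of haem and iron uptake and recycling 1 was lower and 0 higher (median log2 fold change -0.19), beside 1.68% lower and 5.11% higher among all tested genes. In that list 9 had an unadjusted p under 0.05, and 3 passed in DESeq2 (Blvrb, Trf and Steap3). Of 8 tested genes of iron storage and sensing 2 were lower and 0 higher (median -0.13), the same number passed in DESeq2, and 2 had an unadjusted p under 0.05. Of 13 tested BACH1 and NRF2 factors and targets 0 passed in edgeR or in DESeq2 and 3 had an unadjusted p under 0.05 (median -0.19).

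Fth1, the ferritin heavy chain that oxidises iron for storage, stood at 1649, 1486, 1539, 1649.8 and 1495 CPM in WT and at 1185, 1125, 1248, 926 and 966 CPM in LAIRKO (log2 fold change -0.52 ± 0.10, edgeR adjusted p = 0.00714). Ftl1, the ferritin light chain, stood at 82.1, 71.5, 73.0, 72.7 and 66.9 CPM in WT and at 56.4, 49.4, 57.9, 38.0 and 34.6 CPM in LAIRKO (-0.63 ± 0.14, edgeR adjusted p = 0.0201). Neither gene overlapped between the groups, and LAIRKO replicates 4 and 5 were the lowest libraries for both, as they were for Hmox1. Both ferritin genes have near-identical processed copies in the genome, so their reads could have been split, and their levels are uncertain. A gene on the opposite strand, Gm10252, also covers 26.5% of the Ftl1 exon length, with 4.6 counts on average against 819 for Ftl1. Both calls were lost without WT replicates 1 and 4 (adjusted p = 0.0731 and 0.121), and that of Ftl1 also without LAIRKO replicates 4 and 5 (0.0634), without WT replicate 1 (0.0520) and without LAIRKO replicate 4 (0.0536).

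Blvrb, biliverdin reductase B, which also reduces flavins, stood at 49.0, 52.3, 41.8, 42.6 and 42.1 CPM in WT and at 29.0, 26.9, 31.8, 24.9 and 21.6 CPM in LAIRKO. The groups did not overlap, and the fall of 0.76 ± 0.13 on the log2 scale passed in all 20 alternative fits (edgeR adjusted p = 0.00374 with all libraries). Tfrc, the transferrin receptor for iron import, stood at 28.6, 23.6, 18.4, 23.7 and 36.5 CPM in WT and at 31.1, 37.6, 23.7, 48.1 and 49.6 CPM in LAIRKO (log2 fold change 0.54 ± 0.22, edgeR adjusted p = 0.174). Tfrc was highest in LAIRKO replicates 4 and 5, in which the proliferation marker Mki67 was also highest, at 124 and 119 CPM.

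Iron-regulatory proteins bind a hairpin in some of these transcripts, holding back translation from a 5′ UTR and protecting the transcript from decay in a 3′ UTR. Hairpins with a loop of CAGTGN, an unpaired C before the stem and 5 paired bases were searched in GENCODE M21 transcripts. They are shown for the storage, export and import genes, with the loop in capitals.
Fth1, 5′ UTR, chr19:9982738-9982754, plus strand: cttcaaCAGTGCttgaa
Ftl1, 5′ UTR, chr7:45459785-45459801, minus strand: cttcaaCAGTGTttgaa
Slc40a1, 5′ UTR, chr1:45925471-45925487, minus strand: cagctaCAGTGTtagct
Tfrc, 3′ UTR, chr16:32631225-32631241, plus strand: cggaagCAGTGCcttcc
Slc40a1 was the only gene of the set of 10 with such a hairpin in a UTR, and 1.34% of genes with a protein-coding transcript held one anywhere. Tfrc held 4 in its 3′ UTR, of which the first is shown. The ferritin hairpins have the same stem and differ in the last loop base. The transcripts that carry the hairpin in a 5′ UTR thus included 2 that fell, Fth1 and Ftl1, and 1 that did not pass, Slc40a1.

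Further iron genes had fold changes that did not pass in edgeR. Slc11a1, the phagosomal metal transporter NRAMP1, had a mean of 572 ± 68.7 CPM in WT against 468 ± 88.0 CPM in LAIRKO (SD, n = 5 each) (adjusted p = 0.215). Slc48a1, which brings haem out of the phagolysosome, stood at 109 ± 6.599 and 99.1 ± 10.4 CPM (adjusted p = 0.415). An exon of Hdac7 on the opposite strand covered 1.05% of its exon length. Bach1, the haem-sensing repressor of Spic and Hmox1, had means of 58.4 in WT against 48.5 CPM in LAIRKO (log2 fold change -0.27 ± 0.16, SE, adjusted p = 0.348). Nfe2l2, the activator NRF2 that competes with BACH1, stood at 494 ± 63.8 and 432 ± 108 CPM (adjusted p = 0.501). The genes of the BACH1 and NRF2 list with the smallest p-values, the peroxiredoxin Prdx1 and the thioredoxin reductase Txnrd1, had log2 fold changes of -0.27 ± 0.10 and 0.30 ± 0.12 (adjusted p = 0.132 and 0.168).

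**Figure D4:**
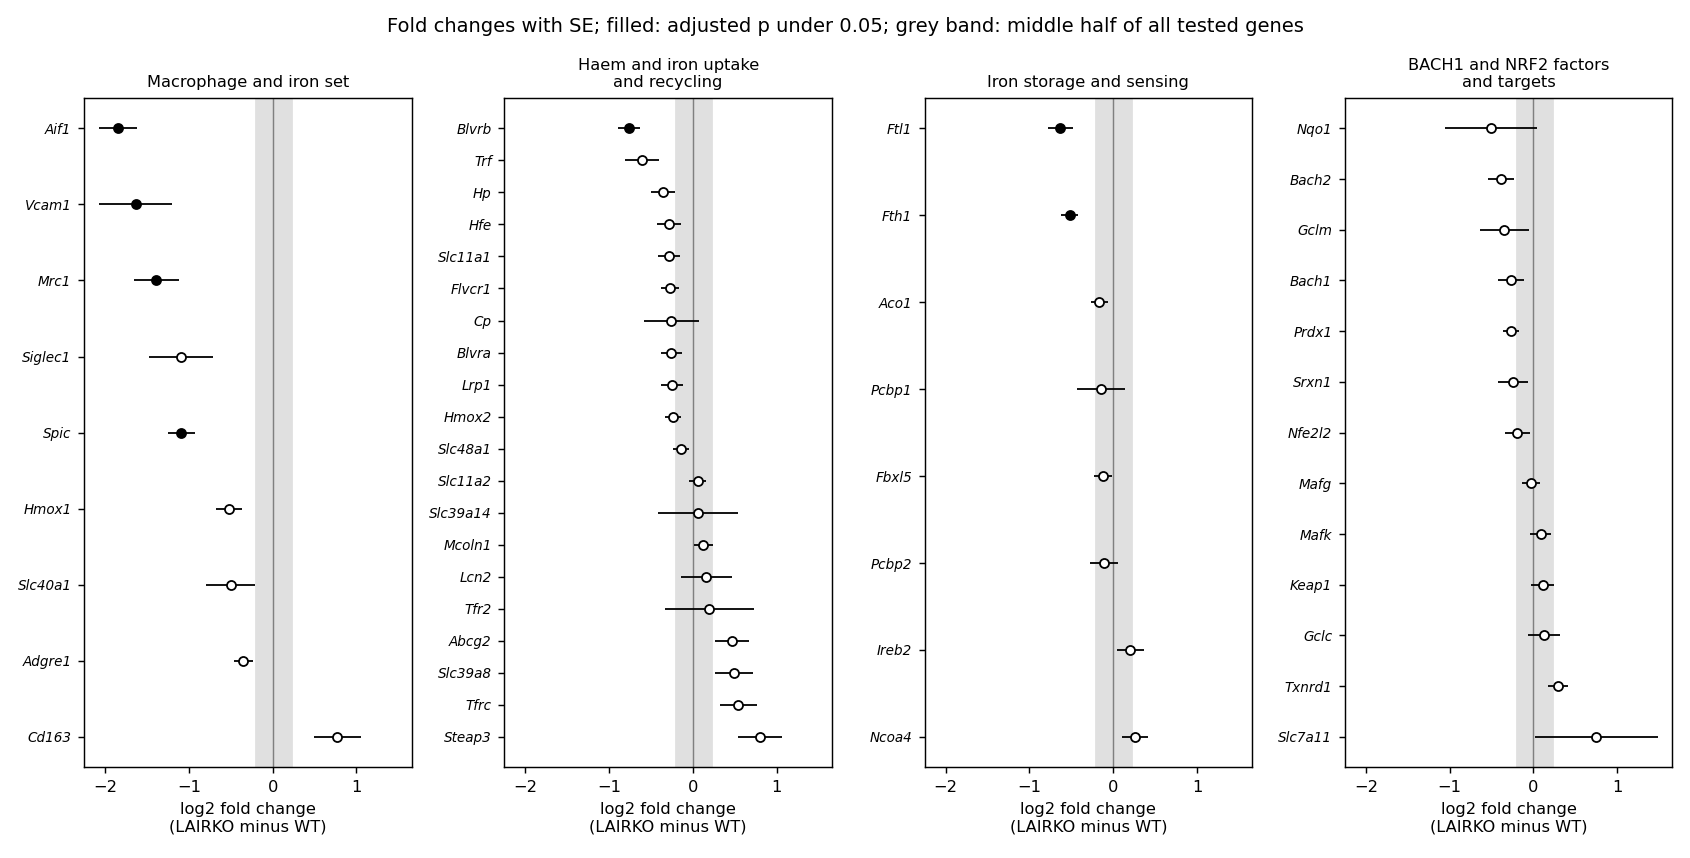
Log2 fold changes (LAIRKO minus WT) with SE for the tested genes of the set and of 3 iron lists. Filled points passed at an adjusted p under 0.05, open points did not, and the grey band is the interquartile range of all tested genes (-0.20 to 0.23).

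Other genes of tissue macrophages were lower as well. Of 23 tested, 11 were lower and 0 higher, all 23 log2 fold changes were below 0, and their median was -0.84. Among all tested genes 1.68% were lower, 5.11% higher and 50.3% below 0. The changes with the smallest p-values were those of the complement chains C1qa, C1qb and C1qc (-2.33, -2.29 and -2.33) and of Ms4a7 (-2.21, edgeR adjusted p = 3.48e-04). Ms4a7 stood at 72.4, 40.5, 40.6, 74.8 and 36.1 CPM in WT and at 11.6, 12.0, 7.69, 13.01 and 12.8 CPM in LAIRKO. Like Aif1 it was high in WT replicates 1 and 4, and within LAIRKO replicate 3 was low.

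Marker lists of other cell types are given as counts, to be read beside 1.68% lower and 5.11% higher among all tested genes. Of 12 tested erythroid genes 4 were lower, all of them globins that come in near-identical pairs and lost their calls in 8 to 11 of 20 alternative fits, with the summed list at 98.1 to 1329 CPM in WT and 47.7 to 141 CPM in LAIRKO. Of 10 myeloid progenitor genes 9 were higher, led by the granule enzyme Mpo (log2 fold change 2.71 ± 0.29, edgeR adjusted p = 3.48e-04), and of 10 mitosis genes 10 were higher. Classical monocyte genes had 2 of 7 higher, dendritic cell genes 1 of 9 higher and 3 lower, and the T and NK cell and eosinophil, basophil and mast cell lists 1 of 2 and 1 of 5 higher. Of 3 platelet and megakaryocyte genes 1 was lower. Of 10 neutrophil and 7 B cell genes 0 passed in edgeR or DESeq2, and 1 of each list had an unadjusted p under 0.05. Flt3 was counted in both the progenitor and the dendritic cell list.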

How the data were processed

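RNA sequencing counts of 10 libraries were analysed. Alignment used GSNAP and the build GRCm38.p5, per the submitters' processing notes. The counting tool, annotation release, strand setting and filters were not given in the sources used here. Raw counts per gene, not normalized, are what the authors deposited, as 1 table of 52636 genes in 10 columns. Each column was tied to its library through the identifier in the title, with 0 columns unused.

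Symbols, positions and exon lengths came from GENCODE M21 (GRCm38), which matched 52489 gene identifiers. The main analysis ran in edgeR 4.0.16 under R 4.3.3: filterByExpr (minimum count 10, minimum total 15), TMM scaling, glmQLFit and glmQLFTest of LAIRKO against WT with no covariate, and Benjamini-Hochberg adjustment over 13469 genes. The threshold was an adjusted p under 0.05, and all tests are two-sided. Log2 fold changes are LAIRKO minus WT, with an SE derived from the F statistic. Levels per kb divide CPM by the union of a gene's exons. A gene under the filter was compared by an exact permutation test of mean CPM. DESeq2 1.42.0 and limma 3.58.1 were alternatives. The procedure was tested on simulated counts.

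The members, lists and tests were chosen with earlier results of these data known. The rule for named genes took the 10 members, Lair1 and 7 iron genes, and from each list up to 4 members past the threshold by p, or 2 where none passed. Marker genes that the rule takes are counted here and mostly not given by value. P-values measure the spread between libraries, which may be technical, since the labels do not say that libraries came from separate animals. No library repeated another: chi-square per degree of freedom between replicates was 15.5 to 78.3. Without a stated strand setting, reads of a gene and an overlapping antisense gene cannot be told apart. Limits drawn from counts describe counting error alone, because reads without molecular identifiers are not independent molecules.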

Additional observations from a re-analysis of the deposited data

Results flagged for a closer look

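Over all genes given by value, 74 groups of 5 libraries were tested for a highest or lowest library far from the rest. The limit was a gap to the next library above 0.71 of the group's range, and 10 groups exceeded it. Chance gives about 1 in 20 for independent groups. These groups were not independent, since the globins shared the same high library. Trf and Steap3 were also chosen after their values were seen. The count of 10 is therefore not compared with that rate. None of the 20 groups from the set of 10 genes exceeded the limit, among them Vcam1 in WT, where replicate 4 was at 5.93 CPM and the others at 22.7 to 33.4 CPM. WT replicate 2 was high for the globins Hba-a1 (165 CPM), Hba-a2 (174 CPM), Hbb-bs (711 CPM) and Hbb-bt (194 CPM) and for Mpo (915 CPM). WT replicate 5 was high for Slc11a1 (691 CPM) and for transferrin, Trf (249 CPM). WT replicate 1 was high for the ferrireductase Steap3 (8.03 CPM). LAIRKO replicate 3 was low for Ms4a7 (7.69 CPM), and LAIRKO replicate 1 was high for Slc48a1 (117 CPM).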

How the results depend on the processing

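Aif1 and Spic passed in all 20 alternative fits, and Mrc1 in 19, while Vcam1 lost its call in 10 of the 20. All 9 tested genes of the set kept the sign of their fold change in every alternative. The count of changed genes over the whole table, 914 in the chosen fit, was 1379 with library totals, 1516 with DESeq2, 376 without LAIRKO replicates 4 and 5, 338 without WT replicates 1 and 4, and 535 to 1170 with 1 library left out. Of the set, 7 genes passed with DESeq2, adding Adgre1, Hmox1 and Siglec1, and 3 to 5 with 1 library left out. Of the haem, iron, BACH1 and NRF2 genes 3 passed in the chosen fit, 5 with DESeq2 and 2 to 5 with 1 library left out. The other tissue macrophage genes had 11 lower, and 8 to 12 over the alternatives. The difference of Folr2, -0.0269 CPM, was 0.0275 with library totals and -0.159 to 0.0447 with 1 library left out (0.0447 without WT replicate 3, 0.0343 without WT replicate 5, 0.0352 without LAIRKO replicate 1), and it never passed the exact permutation test. The cause of these shifts was not tested. Libraries that share a replicate number did not deviate together (correlations of -0.12 to 0.06 across genes). Libraries with different numbers had correlations of -0.19 to 0.19. No pairing by number was seen, though a weak one could be missed with so few libraries. With the replicate number as a block 600 genes changed, and the same 4 genes of the set passed.

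Low counts limit what can be said of Folr2 (1 to 13 per library) and Cd163 (33 to 161). Other genes of the set had count ranges that overlapped that of Cd163. These were Siglec1 (42 to 294), Vcam1 (61 to 431), Spic (96 to 293), Slc40a1 (105 to 343) and Mrc1 (118 to 652).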

Other observations

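Apart from the genes above, 3 genes were chosen after their values were seen. Transferrin, Trf, averaged 162 ± 50.4 CPM in WT against 106 ± 26.5 CPM in LAIRKO (SD, n = 5 each; log2 fold change -0.61 ± 0.21, edgeR adjusted p = 0.101). A gene on the same strand, Gm20425, covers 63.5% of the Trf exon length and held 0 counts on average. How reads in the shared part were assigned is not known, so the Trf level is uncertain. Steap3, an endosomal ferrireductase of the transferrin cycle, stood at 4.82 ± 1.88 and 8.41 ± 1.79 CPM (0.80 ± 0.26, edgeR adjusted p = 0.0870). Apoe, the lipid carrier secreted by macrophages, was the 4th highest of the tested genes per length in both genotypes and fell from 14130.4 ± 2565 to 9489 ± 2031 CPM (-0.57 ± 0.16, edgeR adjusted p = 0.0456). With 1 library left out Apoe lost its call in 8 of 10 fits.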
